A study of Mus musculus with 22 samples.

Results

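The comparison described here is the difference between 2 cold responses of mouse inguinal white fat, that of PPARα-null mice and that of wild-type mice. It used all 22 arrays of the series and every probe set with 1 gene symbol, 23521 of the 41345 deposited probe sets, which stand for 22180 genes. For each probe set the mean at 28 °C was subtracted from the mean at 5 °C within a genotype, and the wild-type result was then subtracted from the null result. A value below 0 therefore means a cold effect that was lower in null mice. All changes are log2 units, so that 1 unit is a doubling, and each difference is given with its 95% interval, which is not adjusted for the number of probe sets.

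All mice were male, on the C57BL/6 background, aged 3 to 4 months and fed chow. They were either wild type or PPARα-null, the latter carrying a disrupted Ppara gene in the whole body, in a line backcrossed for more than 10 generations. Every mouse first lived at 28 °C for 5 weeks. The thermoneutral groups stayed there (6 wild-type and 6 null mice arrayed), and the cold groups spent 1 week at 21 °C and then 10 days at 5 °C (5 wild-type and 5 null mice arrayed). The labels give 10 mice housed per group, and the sources used here do not tell how the 22 arrayed mice were picked.

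PPARα is a nuclear receptor that binds fatty acids and, paired with the retinoid X receptor, switches on genes of fatty acid transport and oxidation, above all in liver, heart and brown fat. In subcutaneous white fat, cold and the noradrenaline released by sympathetic nerves induce beige adipocytes, which carry many mitochondria and the uncoupling protein Ucp1. This change is called browning. Because PPARα is abundant in brown and beige adipocytes and its agonists raise thermogenic genes, a mouse without it asks whether cold needs this receptor to brown the fat, and the difference of the 2 cold responses is the direct test of that question.

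The cold responses of the genotypes were close to each other across the genome. Of 23521 probe sets, 0 (0%) differed between the genotypes in their cold effect at an adjusted p under 0.05 (limma, Benjamini-Hochberg), and the smallest adjusted p was 0.616. At an unadjusted p under 0.05 there were 1202 probe sets (5.11%), 489 with a higher and 713 with a lower effect in null mice. The cold effect itself passed the test for 3818 probe sets (16.2%) in wild-type mice, 1911 higher and 1907 lower in the cold, and for 3042 (12.9%) in null mice, 1572 higher and 1470 lower. When each array's median was subtracted first, the balance of higher to lower calls became 2637 to 1304 in wild-type mice and 1949 to 1018 in null mice, and the median cold effect of all probe sets moved from 0.01 to 0.07 and from −0.01 to 0.04. The number of probe sets that differed between the genotypes was 0 in that fit as well.

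The unadjusted intervals tell which differences fit the values of each probe set, not which sizes the adjusted test could have called. A difference of −1.24 (−1.76 to −0.73), that of 2310069B03Rik described below, stayed uncalled. The median 95% interval reached 0.379 log2 units to either side of its estimate. The interval lay wholly within 1 log2 unit of 0 for 21866 probe sets (93%) and within 0.5 units for 11041 (46.9%). Most cold effects were smaller than 1 unit. Of 5715 probe sets that passed the test in the average of both cold effects, 1925 rose and 2407 fell by at most 0.5. For such effects an interval within 1 unit can also hold a full loss, so here and in the lists below it does not show a kept response. The plot of p-values shows the 23521 unadjusted values in 20 bins.

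**Figure D1:**
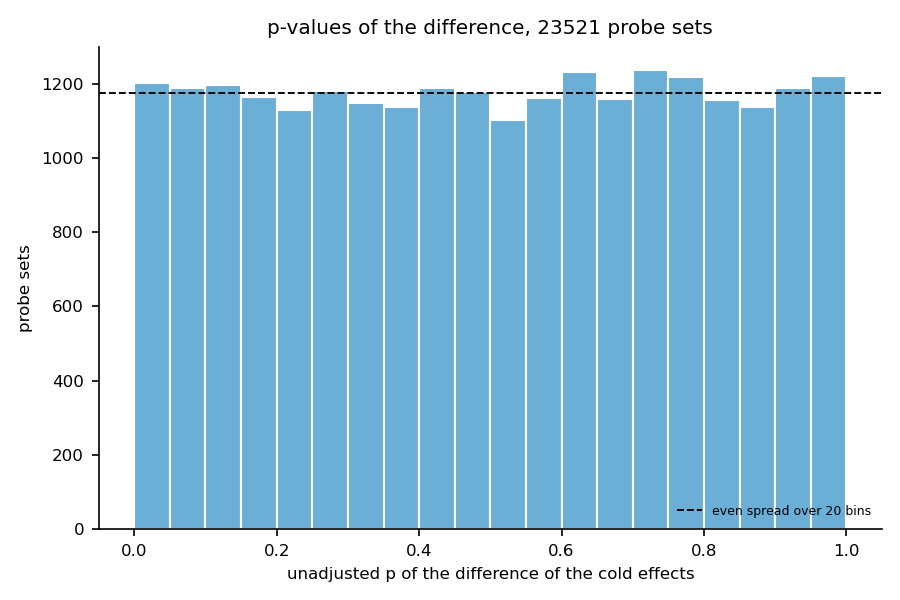
Histogram of the unadjusted p-values of the difference of the cold effects (x axis, 20 bins from 0 to 1; y axis, probe sets per bin). The bins hold 1102 to 1237 probe sets around the even share of 1176 (dashed line), and the lowest bin holds 1202.

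The arrays themselves were alike in quality but not in the tissue around the fat cells. Correlations between arrays ran from 0.958 to 0.981 and array medians from 4.16 to 4.25. Adipoq, the adipocyte hormone adiponectin, lay between 9.76 and 10.33 in all 22 mice, well up the scale, whose highest value was 13.4. Skeletal muscle and lymphocyte genes varied widely from mouse to mouse within every group, with values given below. In a piece of whole tissue, fewer cells of a type and less RNA per cell cannot be told apart.

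Ppara, the gene disrupted in the null mice, was itself a cold-responsive transcript on these arrays. At 28 °C its lowest, median and highest values were 4.42, 4.74 and 5.00 in wild-type mice and 4.14, 4.90 and 5.45 in null mice. At 5 °C the wild-type mice read 6.13, 6.49, 6.50, 6.88 and 6.99, and the null mice 5.77, 5.99, 5.99, 6.66 and 7.10. The genotypes overlapped at both temperatures. The difference of the cold effects was −0.45 (95% interval −1.12 to 0.22, adjusted p = 0.98). The position of the probe set against the altered part was not known here, so its signal checks neither the labels nor the loss of the protein.

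The signal that starts browning runs from adrenergic receptors through cyclic AMP to protein kinase A. Of 18 measured genes of this pathway, cold raised 4 in wild-type mice and 6 in the null genotype, against 8.12% and 6.68% of all probe sets. Adcy10, the soluble adenylyl cyclase, rose by 1.70 and 1.20, a difference of −0.51 (−1.10 to 0.09). Prkar2b, a regulatory subunit of protein kinase A, rose by 0.58 and 0.55. The phosphodiesterase Pde3b, which breaks cyclic AMP down, had the smallest unadjusted p of the list in the difference, at 0.0718, with cold effects of 0.09 and 0.32. The median difference over the list was 0.05, beside −0.003 over all probe sets, and 17 of 18 intervals lay within 1 log2 unit.

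Among 32 transcription regulators of brown and beige fat, wild-type mice had 9 increases and 3 decreases, against 8.12% and 8.11% of all probe sets, and null mice 8 and 3, against 6.68% and 6.25%. The decreases are near the share of all probe sets. The coactivators of mitochondrial biogenesis moved alike in both genotypes. Ppargc1a, which encodes PGC-1α, had a lowest, median and highest value of 6.48, 6.69 and 6.93 in wild-type and 6.28, 6.66 and 6.83 in null mice at 28 °C. At 5 °C it read 7.61, 7.88, 7.89, 8.09 and 8.29 in wild-type and 7.70, 7.79, 7.83, 7.84 and 7.93 in null mice. All cold mice stood above all warm mice of either genotype, and the cold groups overlapped. The rise was 1.25 and 1.20, and the difference was −0.05 (−0.38 to 0.28). Its relative Ppargc1b rose by 1.48 and 1.47, a difference of −0.01 (−0.39 to 0.37).

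Prdm16, a coregulator that steers precursors and white adipocytes toward the brown fate, had the smallest p of the regulators in the difference. At 28 °C it lay at 5.83, 5.99 and 6.26 (lowest, median, highest) in wild-type and at 5.93, 6.19 and 6.48 in null mice. At 5 °C the wild-type values were 6.38, 6.38, 6.41, 6.47 and 6.54, and the null values 6.14, 6.29, 6.30, 6.34 and 6.45. The warm null mice spread over most of the range of both cold groups, whereas all cold wild-type mice lay above all warm wild-type mice. The cold effect was 0.43 in wild-type mice, which passed the test (adjusted p = 0.0029), and 0.08 in null mice, which did not. The difference of −0.36 (−0.64 to −0.07) had an unadjusted p of 0.0172 and an adjusted p of 0.967. A dimmer probe set of Prdm16 went the other way, with a difference of 0.369. Zfp516, a transcription factor that partners Prdm16, was the other regulator with an unadjusted p under 0.05 (0.0313). It was named after its values were seen, and its difference was 0.26 (0.03 to 0.50, adjusted p = 0.967).

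The genes that make heat were induced in both genotypes, with close medians but wide intervals of the difference. Of 20 measured thermogenic and brown-fat effectors, 17 rose in each genotype and none fell, against 8.12% (wild type) and 6.68% (null) of all probe sets that rose. By over 1 log2 unit on average 16 of them rose, beside 168 of all 23521 probe sets. The list's median cold effect was 2.35 (wild type) and 2.50 (null). Its median difference was −0.08, its differences ran from −0.38 to 0.45, and 0 of 20 had an unadjusted p under 0.05. The median interval reached 0.562 units to either side, beside 0.379 over all probe sets. Intervals lay within 1 log2 unit of 0 for 17 of 20 (85%, beside 93% of all). They lay within 0.5 units for 3 (15%, beside 46.9%). The list was put together with earlier results of these data known, so its rise is no independent evidence.

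Ucp1, the proton channel that uncouples respiration from ATP synthesis, had the largest cold effect on the arrays in both genotypes. Its lowest, median and highest values at 28 °C were 4.50, 5.41 and 5.80 in wild-type and 4.99, 5.25 and 6.47 in null mice. At 5 °C the wild-type mice read 12.30, 12.36, 12.43, 12.43 and 12.49, and the null mice 12.25, 12.42, 12.45, 12.56 and 12.58. The cold groups overlapped almost wholly and were much tighter than the warm groups. The rise was 7.05 in wild-type mice (132.4-fold) and 6.91 in null mice (119.81-fold), and the difference was −0.14 (−0.86 to 0.58). The cold values lay within about 1 unit of the brightest value on any array, 13.4, and whether the array still resolves differences there was not tested.

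Elovl3, an elongase of very long fatty acids that marks active brown fat, gave the same picture at lower brightness. At 28 °C its values were 2.59, 3.60 and 4.16 (lowest, median, highest) in wild-type and 2.90, 3.39 and 3.68 in null mice. At 5 °C they were 9.85, 10.10, 10.51, 10.62 and 11.00 in wild-type and 9.68, 10.08, 10.18, 10.25 and 10.36 in null mice. The 3 highest cold mice were wild type and the lowest was null, but the groups overlapped. Elovl3 rose by 6.87 and 6.77, a difference of −0.10 (−0.77 to 0.58).

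The other effectors followed. Cox7a1, a subunit of cytochrome oxidase used in muscle and brown fat, rose by 3.68 and 3.88, and its partner Cox8b by 3.17 and 2.96. Cidea, a lipid droplet protein of brown adipocytes, rose by 2.67 and 2.83, and Otop1, a proton channel, by 2.71 and 2.60. Dio2, which activates thyroid hormone, rose by 1.97 and 2.42, the largest difference in the list above 0 at 0.45 (−0.20 to 1.10), while a dimmer Dio2 probe set gave 0.053. The largest below 0 was that of Ucp3, a mitochondrial relative of Ucp1 found in muscle and brown fat, at −0.38 (−0.79 to 0.02).

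**Figure D2:**
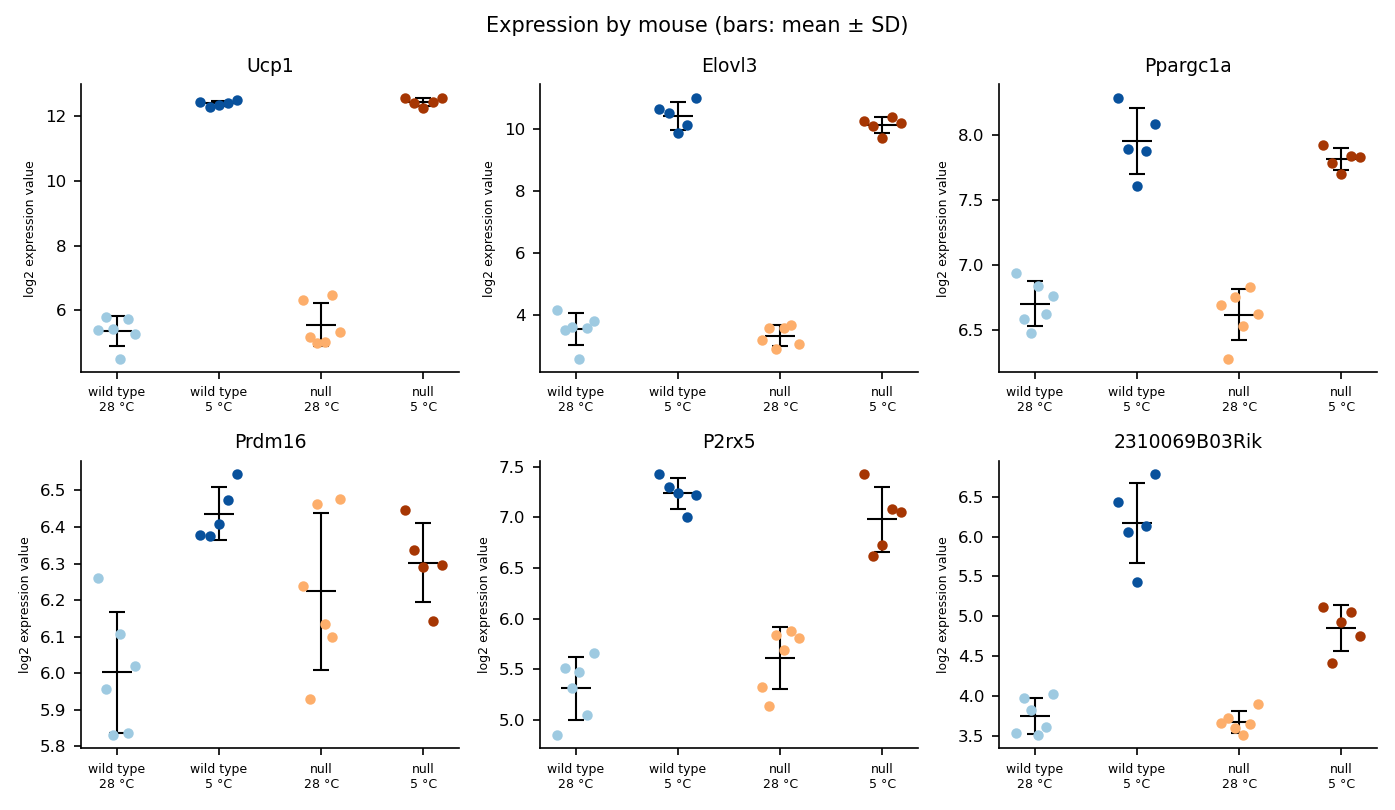
Log2 expression value (y axis) of 6 genes in each mouse, by genotype and temperature (x axis); each point is 1 mouse and the bars are mean ± SD. Ucp1, Elovl3 and Ppargc1a rise alike in both genotypes, Prdm16 and P2rx5 overlap between the cold groups, and all 5 cold null mice lie below all 5 cold wild-type mice for 2310069B03Rik.

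Of 17 measured genes that mark beige as opposed to classical brown adipocytes, wild-type mice had 3 increases and 3 decreases, against 16.2% of all probe sets called in either direction. Null mice had 4 and 3, against 12.9%, and the median difference was 0.03. P2rx5, an ATP-gated ion channel of thermogenic adipocytes, moved most. Its lowest, median and highest values at 28 °C were 4.85, 5.40 and 5.66 in wild-type and 5.14, 5.75 and 5.88 in null mice. The cold values were 7.00, 7.22, 7.24, 7.30 and 7.42 in wild-type and 6.62, 6.73, 7.05, 7.08 and 7.43 in null mice. Null mice were somewhat higher when warm, and 2 of 5 lay below every wild-type mouse when cold. The cold effect was 1.93 and 1.37, and the difference of −0.56 (−1.04 to −0.07) had an unadjusted p of 0.0255 and an adjusted p of 0.967. Slc36a2, an amino acid transporter that also marks these cells, rose by 0.89 and 0.92, a difference of 0.03 (−0.31 to 0.36).

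A difference that misses a threshold does not show that a response was kept, so the reverse question was put to the same fit: was more than 50% of the wild-type cold effect present in null mice? It was asked of the 168 probe sets (157 genes) that rose by over 1 log2 unit in the average of both genotypes. That average called 5715 probe sets (24.3%). It includes the null effect, so choosing by it favours a high effect in each genotype and a high share, and the values of the 168 are a description. Their median effect was 1.31 and 1.23. The median share of the wild-type effect found in null mice was 93.7%, with quartiles of 85.7% and 103.5%.

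More than 50% of the wild-type effect was called present in null mice for 74 of the 168. The contrast behind this call is the null effect minus 50% of the wild-type effect. It was called above 0 for 150 of all 23521 probe sets (0.638%), whatever the direction of their cold effect. For 92 of the other 94 of the 168 the estimate was also above 50%, and for 68 the unadjusted interval was. The 74 became 34, 45 and 40 without null replicates 1, 4 and 5 at 5 °C, and 40 without null replicate 2 at 28 °C. Chosen instead by a called wild-type rise of over 1 unit alone, a choice that favours a low share and was made after seeing the data, 192 probe sets had a median share of 91%, and 73 of them had the call. Asked the other way round, more than 50% of the null effect was called present in wild-type mice for 120 of the 168, and for 101 of the 154 chosen by the null effect alone. The matching contrast was called above 0 for 353 of all probe sets (1.5%), again whatever the direction of their cold effect. Less than 50% was called for 0 of the 168 in either direction, and for 0 of the 192 and of the 154 in the direction asked.

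The 18 probe sets raised by over 2 log2 units in the average had median effects of 2.63 and 2.59 and a median share of 98.3%, and 17 of them had the call for more than 50% of the wild-type effect, among them Ucp1, Elovl3, Cox7a1, Acot11, Kng2, Cox8b, Cidea, Otop1 and Gys2. Acot11, a brown fat acyl-CoA thioesterase, rose by 3.54 and 3.17, a difference of −0.37 (−0.83 to 0.10). Gys2, the glycogen synthase best known from liver, rose by 2.60 and 2.57. Averaged per mouse, the 168 raised probe sets lay between 6.42 and 6.68 in wild-type and 6.35 and 6.70 in null mice at 28 °C, and between 7.94 and 8.29 and between 7.78 and 8.19 at 5 °C. The warm and cold mice are far apart on this mean, and within each temperature the genotypes overlap.

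**Figure D3:**
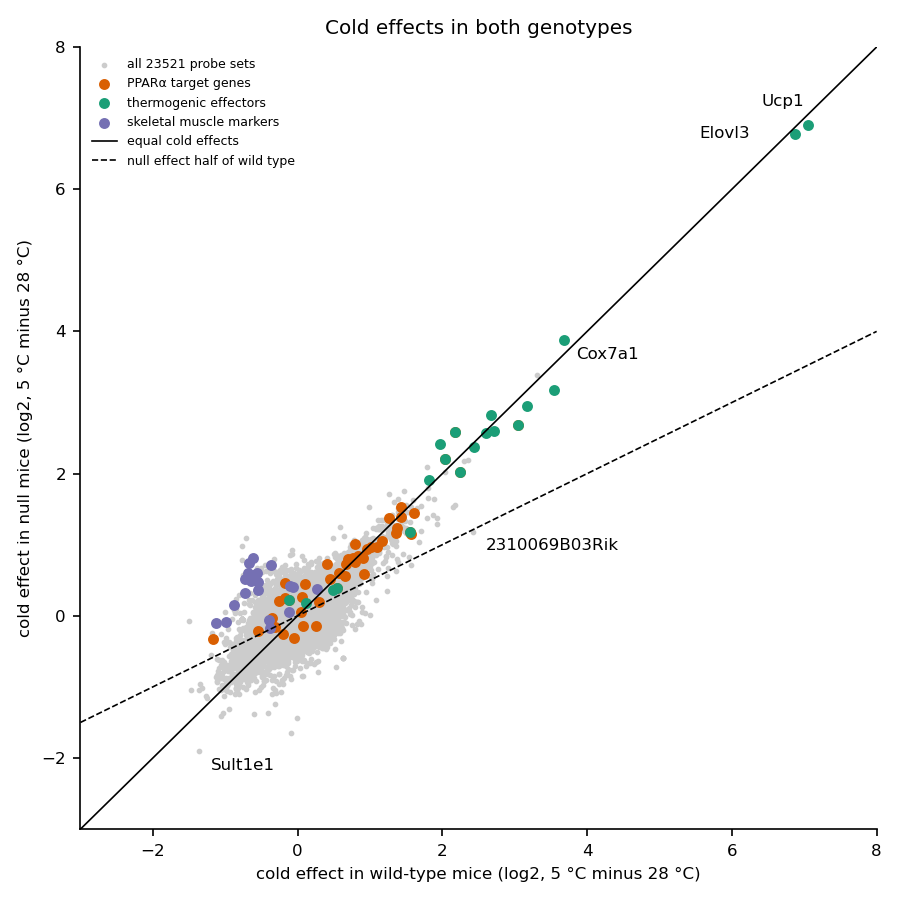
Cold effect (log2, 5 °C minus 28 °C) of 23521 probe sets in wild-type mice (x axis) and null mice (y axis), with PPARα target genes, thermogenic effectors and skeletal muscle markers in colour; the solid line marks equal effects and the dashed line a null effect of 50% of the wild-type effect. The thermogenic genes lie along the solid line up to Ucp1 (7.05 and 6.91), the muscle markers all lie above it, and 2310069B03Rik lies near the dashed line.

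Small shortfalls leaned to the null side. The average by which the probe sets were chosen is uncorrelated with the difference, since both genotypes have the same group sizes. Of the 168 raised probe sets, 118 (70.2%) had the smaller effect in null mice, beside 54.4% of all probe sets, and their median difference was −0.08. An unadjusted p under 0.05 was reached by 14 of them (8.33%, beside 5.11% of all), and in all 14 the effect was smaller in null mice. These genes share arrays and often vary together, so the counts are a description and were given no test. The 16 probe sets lowered by over 1 unit had median effects of −1.12 and −1.04, 11 of them closer to 0 in null mice.

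**Figure D4:**
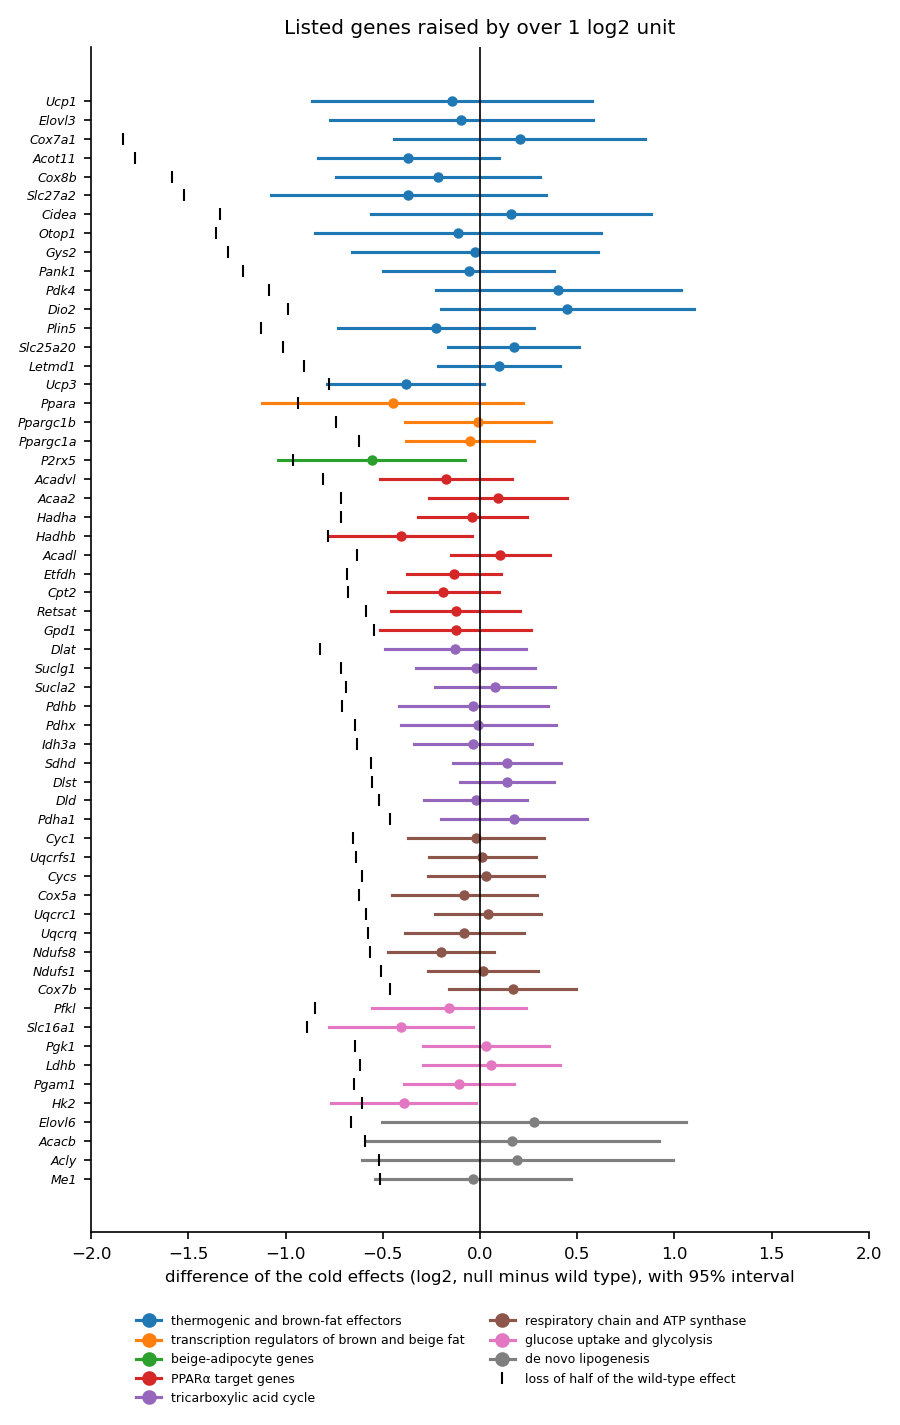
Difference of the cold effects (x axis, log2, null minus wild type) with its 95% interval for 58 listed genes raised by over 1 log2 unit in the average (y axis), coloured by gene list; black ticks mark where 50% of the wild-type effect would be lost, and those of Ucp1 and Elovl3 lie beyond the axis. Of the 58 estimates 36 lie below 0, and 4 intervals exclude 0.

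The widest gap among the raised genes was that of 2310069B03Rik, a long noncoding RNA in the RefSeq gene table, read here by probe set 17468043. It was known from earlier results of these data, so its size is a description. At 28 °C its lowest, median and highest values were 3.50, 3.71 and 4.03 in wild-type and 3.51, 3.65 and 3.90 in null mice. At 5 °C the wild-type mice read 5.43, 6.06, 6.14, 6.43 and 6.79, and the null mice 4.41, 4.75, 4.93, 5.05 and 5.12. The genotypes coincide when warm, and every cold null mouse lies below every cold wild-type mouse yet above all warm mice.

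The transcript rose by 2.42 in wild-type (5.37-fold) and by 1.18 in null mice (2.27-fold), so that 48.8% of the wild-type effect was found without PPARα. The difference of −1.24 (−1.76 to −0.73, SE 0.25) had an unadjusted p of 5.58e-05, the smallest of the 23521, and an adjusted p of 0.616. Without wild-type replicate 3 at 5 °C, the mouse at 5.43, the difference was −1.43 with an adjusted p of 0.0229, the only call of a difference when any 1 array was left out. Between genotypes in the cold it was lower in null mice by −1.32 (adjusted p = 0.000664), 1 of 33 probe sets called there (0.14%), and at 28 °C the gap was −0.07 (adjusted p = 0.983).

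Several other raised genes with an unadjusted p under 0.05 in the difference were named only after their values were seen. Lgr6, a receptor for R-spondins, rose from a warm median of 3.52 to 4.82, 5.02, 5.12, 5.25 and 5.52 in wild-type mice, and from 3.64 to 3.93, 4.49, 4.52, 4.69 and 4.96 in null mice. Only the lowest wild-type and the highest null mouse cross, and the difference was −0.85 (−1.42 to −0.28, adjusted p = 0.967). Cyp1a1, the classical target of the aryl hydrocarbon receptor, gained 1.54 and 0.83, a difference of −0.72 (−1.23 to −0.20), with 1 wild-type mouse at 5.70 far above the other 4. Noct, a clock-linked phosphatase of NADP(H), gained 1.46 and 0.88. Paqr9, a membrane receptor family member, gained 1.93 and 1.29, and Slc25a42, the mitochondrial carrier for coenzyme A, 1.30 and 0.86. In each of these 5 genes the null cold effect passed the test as well.

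The genes that PPARα is known to switch on answered cold in mice that lack it. Of 45 measured PPARα target genes the wild-type genotype had 28 increases and 2 decreases, against 8.12% and 8.11% of all probe sets. The null genotype had 29 and 0, against 6.68% and 6.25%. The median effect was 0.70 and 0.73, and the median difference was 0.01. The interval lay within 1 log2 unit for 39 of 45 (86.7%, beside 93% of all probe sets). Of the 14 members raised by over 1 unit, 10 were called to keep more than 50% of the wild-type effect in null mice.

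Slc25a20, the carnitine carrier that brings acylcarnitines into mitochondria, lay at 7.87, 7.96 and 8.18 (lowest, median, highest) in warm wild-type and 7.34, 7.61 and 7.95 in warm null mice. Cold wild-type mice stood at 9.73, 9.80, 9.95, 10.26 and 10.29, and cold null mice at 9.64, 9.72, 9.91, 9.96 and 9.97. Warm null mice were mostly lower, the cold groups overlapped, and the difference was 0.17 (−0.16 to 0.51). Pdk4, which holds back pyruvate dehydrogenase and spares glucose, rose by 2.18 and 2.58, a difference of 0.40 (−0.23 to 1.03). Slc27a2, a fatty acid transporter and acyl-CoA synthetase, rose by 3.04 and 2.68, a difference of −0.37 (−1.08 to 0.34). A dimmer probe set of Slc27a2 changed by 0.343 and 0.123.

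Of 18 measured enzymes and carriers of mitochondrial fatty acid oxidation, 17 rose in each genotype, against 8.12% (wild type) and 6.68% (null) of all probe sets. The median difference was 0.00, and all 18 intervals lay within 1 log2 unit. Etfdh, which passes electrons from fatty acid oxidation to ubiquinone, rose by 1.37 and 1.23 (difference −0.14, −0.38 to 0.11). Hadhb, the thiolase subunit of the trifunctional protein, was the exception by unadjusted p (0.0308). It stood at medians of 4.23 and 4.33 when warm, and in the cold at 5.55, 5.72, 5.76, 5.81 and 6.09 in wild-type and 4.99, 5.20, 5.49, 5.66 and 5.74 in null mice. The cold groups overlapped, and the difference was −0.41 (−0.77 to −0.04, adjusted p = 0.967). Its partner subunit Hadha rose by 1.43 and 1.39.

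Peroxisomal oxidation is the part of fat breakdown that PPARα agonists expand most in liver. Of 16 measured genes of it, transcripts of 12 rose in wild-type and of 10 in null mice, against 8.12% and 6.68% of all probe sets. The median difference was −0.04. Abcd3, which imports fatty acids into peroxisomes, rose by 1.10 and 0.94, and Hsd17b4, the bifunctional enzyme of the pathway, by 0.66 and 0.56. The thioesterase Acot4 had effects of 0.61 and 0.19, of which the former passed the test, and a difference of −0.42 (−0.95 to 0.10), while its other probe set gave 0.26.

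Vnn1, the pantetheinase that recycles coenzyme A, had a lowest, median and highest value of 6.31, 6.67 and 7.27 in warm wild-type mice and of 6.27, 7.12 and 7.79 in warm null mice. In the cold the wild-type mice read 4.99, 5.43, 5.60, 5.91 and 5.96, and the null mice 6.03, 6.51, 6.82, 7.09 and 7.13. The cold groups did not overlap, and the warm null mice covered the whole range of the cold null mice but its lower end. Vnn1 fell by 1.17 in wild-type mice and changed by −0.33 in null mice, which did not pass the test. The difference of 0.84 (−0.00 to 1.68) was the largest in the list and had an unadjusted p of 0.0502 and an adjusted p of 0.967. Vnn1 was named after its values were seen. Txnip, which restrains glucose uptake, fell by 0.55 in wild-type mice, changed by −0.21 in null mice and differed by 0.34 (0.04 to 0.64, unadjusted p = 0.0274). Angptl4, a fasting-induced inhibitor of lipoprotein lipase, changed by −0.25 and 0.21, neither past the test.

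PPARα and its partner bind a direct repeat of AGGTCA with 1 base between the copies, and RefSeq promoters (build GRCm38.p6, 250 bases before to 50 after the start) were searched for it on both strands. The full repeat AGGTCANAGGTCA was in 13 of 32851 promoters (0.0396%). The looser AGGNCANAGGNCA, which includes the former, was in 125 (0.381%). Of 35 PPARα target genes with a promoter in that table, 0 held the full and 1 the loose repeat (2.86%), and of 17 thermogenic genes 0 held either. A match is a description of letters and no match says nothing of the receptor. The 1 match is shown to give the element its letters: Fabp1, the liver fatty acid binding protein, on the plus strand of chr6:71199629-71199878, with the repeat in capitals, read on the opposite strand and beginning 67 bases before the start.
Fabp1: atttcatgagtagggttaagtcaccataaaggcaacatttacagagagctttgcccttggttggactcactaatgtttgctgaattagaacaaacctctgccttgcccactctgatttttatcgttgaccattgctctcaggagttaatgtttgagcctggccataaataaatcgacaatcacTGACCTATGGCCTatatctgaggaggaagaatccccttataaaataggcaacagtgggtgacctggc

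Fabp1 was dim in this fat. Its lowest, median and highest values were 2.03, 2.31 and 3.19 in warm wild-type and 2.11, 2.44 and 3.05 in warm null mice. In the cold the wild-type mice read 1.86, 2.09, 2.22, 2.30 and 2.51, and the null mice 2.30, 2.37, 2.97, 3.20 and 3.72. Neither cold effect (−0.17 and 0.46) nor the difference of 0.63 (−0.06 to 1.32) passed the test, and the lower quartile of all probe sets lay at 2.83 to 2.91 on the arrays.

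Transcripts of the mitochondrial machinery that burns the fuel rose in parallel. In the respiratory chain and ATP synthase 48 of 52 measured genes rose in each genotype, against 8.12% (wild type) and 6.68% (null) of all probe sets. The median effect was 0.80 and 0.81, the median difference was 0.03, and 0 had an unadjusted p under 0.05. Of the 12 raised by over 1 unit, 10 were called to keep more than 50%. Cyc1 and Uqcrfs1 of complex III rose by 1.31 and 1.28 in wild-type and by 1.29 each in null mice. Atp5o, a stalk subunit of ATP synthase, rose by 0.93 and 0.58, the lowest difference of the list at −0.35 (−0.76 to 0.05). The highest, 0.97, was that of Cox6a2, the muscle isoform, whose effects of −0.66 and 0.31 did not pass the test.

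The tricarboxylic acid cycle had the narrowest range of differences of all lists. All but 1 of its 21 measured genes rose in each genotype, against 8.12% (wild type) and 6.68% (null) of all probe sets. All 21 intervals lay within 1 log2 unit, 20 lay within 0.5, and the differences ran from −0.13 to 0.17. Suclg1, of succinyl-CoA synthetase, rose by 1.43 and 1.41 (difference −0.02, −0.33 to 0.28). Dlst, of the 2-oxoglutarate dehydrogenase complex, rose by 1.11 and 1.25 (difference 0.14, −0.10 to 0.38). Idh2 did not pass the test in either genotype.

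Transcripts of fat synthesis rose with cold beside those of fat oxidation, again in both genotypes. Of 15 measured genes of de novo lipogenesis 10 rose in each, against 8.12% (wild type) and 6.68% (null) of all probe sets. The median difference was −0.00. Elovl6, which elongates newly made palmitate, rose by 1.33 and 1.60 (difference 0.28, −0.50 to 1.06), and Me1, which supplies NADPH, by 1.03 and 1.00. These intervals are wide, and 0 of the 4 members raised by over 1 unit were called to keep more than 50% of the effect in either direction.

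Triglyceride synthesis and lipolysis gave 11 increases of 24 measured genes in wild-type mice, against 8.12% of all probe sets. Null mice had 8 increases and 1 decrease, against 6.68% and 6.25%. Agpat2, an acyltransferase of triglyceride assembly, rose by 1.16 and 0.98. The lipid droplet coat Plin2 rose by 0.83 and 0.84 (difference 0.01, −0.23 to 0.25). Dgat2, which adds the last fatty acid to a triglyceride, lay at 11.09, 11.48 and 11.55 (lowest, median, highest) in warm wild-type and 11.51, 11.77 and 11.90 in warm null mice. In the cold it read 11.57, 11.70, 11.78, 11.83 and 11.96 in wild-type and 11.60, 11.64, 11.70, 11.79 and 11.83 in null mice. The cold groups overlap and the warm groups barely do. Dgat2 rose by 0.34 in wild-type mice and changed by −0.01 in null mice, a difference of −0.35 (−0.63 to −0.08, unadjusted p = 0.0137, adjusted p = 0.967).

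Transcripts of glucose uptake and glycolysis rose for 11 of 18 measured genes in wild-type and for 12 in null mice. The shares of all probe sets that rose were 8.12% and 6.68%. The median difference was 0.03. Pgam1, a glycolytic mutase, rose by 1.29 and 1.18. Slc16a1, the lactate and ketone transporter MCT1, lay at 7.73, 7.98 and 8.29 in warm wild-type and 8.16, 8.35 and 8.48 in warm null mice. At 5 °C the values were 9.62, 9.71, 9.73, 9.76 and 10.12 in wild-type and 9.43, 9.46, 9.80, 9.95 and 9.98 in null mice. The difference of −0.41 (−0.78 to −0.04, unadjusted p = 0.0324) went with higher warm values in null mice and cold values that overlapped. Hk2, the insulin-responsive hexokinase, rose by 1.22 and 0.83, a difference of −0.39 (−0.77 to −0.02).

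Creatine and calcium cycling have been offered as ways to make heat without Ucp1. Of 16 measured genes 1 rose and 1 fell in each genotype, a share near that of all probe sets called (16.2% in wild-type and 12.9% in null mice). Atp2a2, the calcium pump SERCA2, rose by 0.44 and 0.42 (difference −0.02, −0.21 to 0.17), and Gatm, which makes the creatine precursor, fell by 0.58 and 0.52. The highest differences here, up to 1.42, belong to Atp2a1, Ckm, Sln and Ryr1, which are expressed in skeletal muscle.

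Secreted products of thermogenic fat included 4 increases and 3 decreases of 18 measured genes in wild-type mice, against 8.12% and 8.11% of all probe sets. Null mice had 5 and 2, against 6.68% and 6.25%. Kng2, a kininogen that releases bradykinin, rose by 3.31 and 3.39, a difference of 0.08 (−0.76 to 0.92). S100b, a protein of glia and thermogenic adipocytes that promotes sympathetic innervation, rose by 1.48 and 1.43, a difference of −0.04 (−0.64 to 0.55).

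Of 16 measured genes of the white adipocyte, 6 fell in the wild-type and 5 in the null genotype, against 8.11% and 6.25% of all probe sets. In either genotype 0 rose, and the rest did not pass the test. Sult1e1, which inactivates oestrogens by sulphation, had a lowest, median and highest value of 6.97, 7.47 and 8.10 in warm wild-type and 7.74, 7.96 and 8.71 in warm null mice. The cold mice read 5.85, 5.98, 6.19, 6.31 and 6.35 in wild-type and 5.59, 5.96, 6.13, 6.33 and 6.75 in null mice. It fell by 1.37 and by 1.91, a difference of −0.54 (−1.13 to 0.05), with overlap at both temperatures. Nnat, an imprinted gene of fat and brain, fell by 1.48 and 1.05, and Adipoq by 0.36 and 0.27. Elsewhere among the largest decreases, the decoy interleukin-1 receptor Il1r2 fell by 1.06 and 1.41 and the complement component C7 by 1.25 and 1.16.

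Skeletal muscle genes gave the highest median difference of any list, with the widest intervals. All 20 measured muscle genes had a difference above 0, from 0.10 to 1.42 with a median of 1.03, yet 0 of 20 passed the test in either genotype or in the difference, and the median interval reached 2.12 units to either side. Acta1, skeletal actin, lay at 9.22, 10.53 and 11.76 in warm wild-type and 8.08, 8.90 and 10.70 in warm null mice. In the cold the values were 8.14, 8.45, 9.15, 10.62 and 12.13 in wild-type and 8.03, 8.33, 8.66, 9.47 and 11.67 in null mice. One cold mouse of each genotype carried much more muscle signal than the rest, and all groups overlapped. The mean of the 20 genes per mouse was 6.43 to 8.17 in warm wild-type, 5.72 to 8.84 in cold wild-type, 5.39 to 7.53 in warm null and 5.87 to 8.38 in cold null mice. With this mean as a covariate, an alternative chosen after seeing the data, the difference of Ucp1 was −0.17 and that of 2310069B03Rik −1.28. The part of muscle in the results of other genes was not tested beyond that fit.

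B and T lymphocyte genes likewise spread from mouse to mouse. Their mean over 14 genes ran from 4.86 to 7.73 in warm wild-type, 4.78 to 6.16 in cold wild-type, 4.94 to 8.20 in warm null and 4.53 to 7.15 in cold null mice. None of the 14 passed the test in either genotype, the median difference was −0.08, and the median interval reached 2.04 units. With it as a covariate the differences of Ucp1 and 2310069B03Rik were −0.13 and −1.23.

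Of 12 measured mast cell genes, 4 fell in wild-type mice and 0 in null mice, against 8.11% and 6.25% of all probe sets, and the other 8 passed the test in neither genotype. In the difference 6 had an unadjusted p under 0.05 in the difference, beside 5.11% of all probe sets, though 0 were called. Mcpt4, a chymase of connective tissue mast cells, lay at 6.12, 6.36 and 6.83 in warm wild-type and 5.52, 5.92 and 6.22 in warm null mice. The readings at 5 °C were 5.01, 5.31, 5.33, 5.37 and 5.72 in wild-type and 5.46, 5.48, 5.75, 5.77 and 5.84 in null mice. The warm groups barely overlap, with null mice lower, and the cold groups overlap, with null mice mostly higher. Mcpt4 fell by 1.06 in wild-type mice and changed by −0.26 in null mice, a difference of 0.80 (0.37 to 1.24, adjusted p = 0.801).

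The other mast cell genes of that kind were named after their values were seen. The carboxypeptidase Cpa3 differed by 0.52, the chymase Cma1 by 0.52, the tryptase Tpsb2 by 0.59, the IgE receptor subunit Ms4a2 by 0.50 and the receptor Mrgprb1 by 0.65. The list's mean per mouse was 4.15 to 4.69 in warm wild-type, 3.96 to 4.30 in cold wild-type, 4.11 to 4.34 in warm null and 4.05 to 4.35 in cold null mice. The differences of 3 members lay below 0, among them Mcpt1 at −0.54 and Kit at −0.18.

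**Figure D5:**
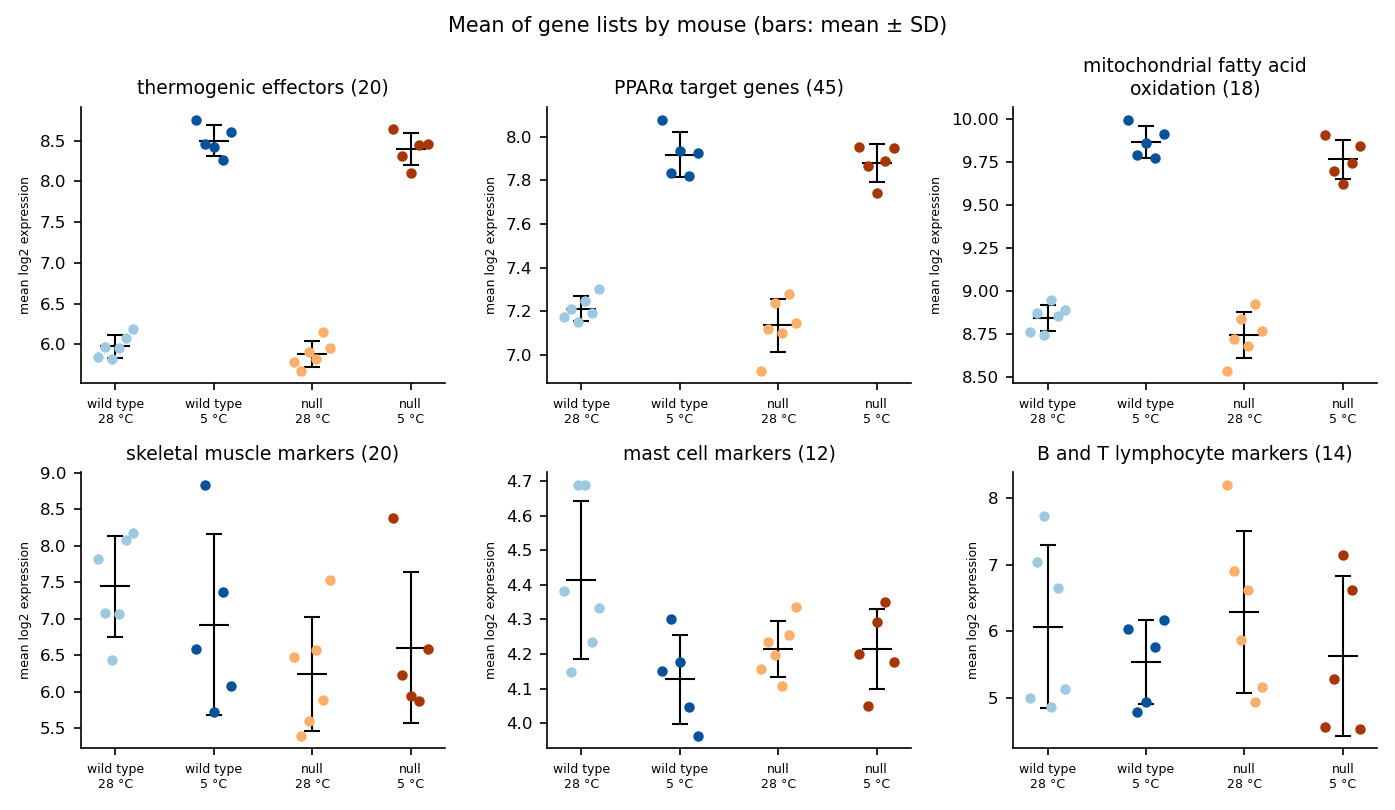
Mean log2 expression (y axis) of 6 gene lists in each mouse, by genotype and temperature (x axis), with the number of genes in the title of each panel; each point is 1 mouse and the bars are mean ± SD. The thermogenic, PPARα target and fatty acid oxidation lists separate by temperature and overlap by genotype, and the muscle and lymphocyte lists spread widely within every group.

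Macrophage genes fell in 15 of 18 in the wild-type and 14 in the null genotype, against 8.11% and 6.25% of all probe sets. Their median difference was 0.06, and all 18 intervals lay within 1 log2 unit. That bound is wider than their median cold effects of −0.64 and −0.56, so it does not show a kept fall. Preadipocyte and fibroblast genes fell in 13 of 14 in each genotype, against the same shares of all probe sets. Pdgfra, the receptor that marks adipocyte precursors, fell by 0.62 and 0.39, with cold values of 8.73 to 8.84 in wild-type and 8.92 to 9.09 in null mice that did not overlap. Flt1, a VEGF receptor of endothelium, had a difference of −0.34 (−0.55 to −0.13, unadjusted p = 0.00309, adjusted p = 0.961). Of 14 epithelial genes, 0 passed the test in either genotype.

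The probe sets with the smallest p in the difference did not pass the test, and their genes are given here as leads by rank. Among those with a higher effect in null mice, Mctp1, a calcium-binding membrane protein, lay at 5.99, 6.14 and 6.22 in warm wild-type and 5.43, 5.81 and 5.89 in warm null mice. At 5 °C the mice read 5.53, 5.65, 5.72, 5.73 and 5.75 in wild-type and 5.74, 5.76, 5.83, 5.88 and 5.97 in null mice. The warm groups were apart and the cold groups overlapped slightly. Its difference was 0.52 (0.29 to 0.75), and Mctp1 was also lower in null mice at 28 °C (adjusted p = 0.048), where 41 probe sets (0.174%) differed by genotype.

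H2-Q10, a nonclassical class I histocompatibility gene, rose by 0.49 in wild-type and by 1.09 in null mice. Its difference was 0.60 (0.32 to 0.88, unadjusted p = 0.000185), but another probe set gave 0.013, and related class I genes may share its probes. Prdm12 differed by 0.87, with 1 other probe set at −0.022. Zfp110 differed by 0.45, Tff3 by 0.56, Ramp3, a partner of calcitonin-family receptors, by 0.53, Slc17a1 by 0.60, Ttll2 by 1.33 and Itih2 by 0.55. Slc17a1 was dim, with group means of 2.43 to 2.85 beside lower quartiles of 2.83 to 2.91 on the arrays. The cold groups did not overlap for Zfp110, Tff3 and Ramp3. Genes chosen by a small p or after their values were seen tend to show such a gap, here and for the other named genes. How many of all probe sets show it was not counted.

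Among those with a lower effect in null mice, Ctnnbip1, an inhibitor of β-catenin, lay at 3.68, 3.80 and 3.86 in warm wild-type and 3.60, 4.08 and 4.22 in warm null mice. At 5 °C it read 4.05, 4.10, 4.33, 4.39 and 4.43 in wild-type and 3.51, 3.69, 3.71, 3.81 and 4.02 in null mice. The order of the genotypes turned with temperature, and the cold groups did not overlap. The difference was −0.73 (−1.04 to −0.42, unadjusted p = 8.61e-05, adjusted p = 0.616), and another probe set gave −0.157.

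Nos2, the inducible nitric oxide synthase, read 4.44, 4.88 and 5.19 in warm wild-type and 5.05, 5.35 and 5.53 in warm null mice, then 5.37, 5.39, 5.58, 5.60 and 5.61 in cold wild-type and 5.07, 5.13, 5.23, 5.33 and 5.37 in cold null mice. Null mice were the higher group when warm and the lower when cold. Nos2 rose by 0.63 in wild-type mice and changed by −0.09 in null mice, and the difference was −0.72 (−1.06 to −0.38). Swsap1, a DNA repair factor, differed by −0.67, and its other probe set agreed in sign at −0.424. Arsb, a lysosomal sulphatase, differed by −0.38, and its other probe set by −0.369. Grm6 differed by −0.60, Gtse1 by −0.95, Zfp981 by −0.85, Lyzl4 by −0.62, St3gal2 by −0.44 and Onecut3 by −0.54. Group means were only 1.93 to 2.32 for Grm6 and 2.20 to 2.81 for Zfp981, below the arrays' lower quartiles of 2.83 to 2.91. Gtse1 lies close to Ppara on chromosome 15 in the RefSeq gene table, and whether its position plays a part was not tested. The other probe set of Grm6 gave 0.125.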

How the data were processed

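Per the labels, each whole-transcript array took 100 ng of RNA (integrity number over 8) from the inguinal fat of 1 mouse. The deposited values are log2 expression values made by the authors with RMA, per the submitters' processing notes; no RMA version or annotation build of the array was given in the sources used here. They were used as deposited. Of 41345 probe sets, 23521 had 1 symbol in GEO's platform annotation, 1814 had several and 16010 had none. The 4 groups were fitted together with limma 3.58.1 under R 4.3.3 (18 residual and 3.36 prior degrees of freedom), with Benjamini-Hochberg adjustment over all 23521 and calls at 0.05. For lists, the brightest probe set stood for a gene with several. Scripts were tested on simulated data. pandas 2.3.3 and matplotlib 3.10.9 served for tables and figures.

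The members, the 15 function lists and the 10 cell type lists were chosen with earlier results of these data known. Named genes are Ppara, Ucp1 and 2310069B03Rik, the 10 smallest p in each direction of the difference, the 10 largest increases and 6 largest decreases of the average, and in each function list the 2 smallest p in the average and the 1 in the difference, and in each cell type list the 1 in the difference, passing over predicted genes, microRNAs, small nucleolar RNAs, immunoglobulin and T cell receptor segments and olfactory, vomeronasal and taste receptors; others are said to be named after their values were seen or serve as examples of a list. Dio2, Pdk4, Fabp1 and Acta1 are also among those named after their values were seen. Alternatives changed the scaling, the filter on dim probe sets, the handling of several probe sets, the fit and the threshold, or left out 1 array. Arrays have no read depth; their number limits the precision.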

Additional observations from a re-analysis of the deposited data

Results flagged for a closer look

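In 496 groups of 5 or 6 values, 18 held 1 mouse whose gap to its nearest neighbour was large against the whole range of its group (Dixon's criterion at the 95% level). Chance flags about 1 in 20 groups. In wild-type mice at 28 °C, replicate 1 stood low for Cidea (7.40, others 8.32 to 8.82) and high for C7 (11.40, others 10.86 to 11.04), replicate 2 high for Fabp1 (3.19) and for the mean of nerve and Schwann cell genes (4.99), replicate 3 low for Dgat2 (11.09) and replicate 6 low for Ms4a2 (2.91). In wild-type mice at 5 °C, replicate 1 stood high for Ppargc1b (7.28) and Slc16a1 (10.12), replicate 2 low for Zfp110 (6.28), and replicate 3 low for Me1 (11.52) and high for Cyp1a1 (5.70).

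In null mice at 28 °C, replicate 2 stood low for Hk2 (7.42), replicate 4 low for Mctp1 (5.43), and replicate 6 low for Onecut3 (4.13) and Noct (4.86). In null mice at 5 °C, replicate 1 stood high for the mean of skeletal muscle genes (8.38, others 5.87 to 6.59) and for the mean of creatine and calcium cycling genes (6.86, others 5.70 to 5.89), which share members, and replicate 2 low for Adcy10 (3.74, others 4.58 to 4.82).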

How the results depend on the processing

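The count of 0 probe sets with a difference of the cold effects held under other scalings, filters on dim probe sets, choices of probe set, array weights, a robust trend, covariates for muscle or lymphocyte genes, and all deposited probe sets (smallest adjusted p 0.0551). It was 28 at an unadjusted p under 0.001, where 2328, 1870 and 3556 probe sets were called for the cold effect in wild-type mice, in null mice and in the average. Leaving out each array in turn gave 0 to 1 for the difference, 3244 to 3900 for the wild-type, 2400 to 3073 for the null and 5337 to 5700 for the average cold effect. After subtraction of array medians the average called 3735 higher and 2154 lower, against 2688 and 3027. The 74 raised probe sets that kept more than 50% of the wild-type effect in null mice became 34 to 83 without 1 array (40 without null 28 °C replicate 2, and 34, 45 and 40 without null 5 °C replicates 1, 4 and 5). They became 26 without the mouse of highest muscle signal in each cold group, an alternative chosen after seeing the data like both covariates, and 0 when 75% was asked for in place of 50%. The 120 that kept more than 50% of the null effect in wild-type mice became 98 to 130 without 1 array and 4 for 75%. The causes were not tested. The sign of the difference turned under at least 1 alternative for 20 of 99 named genes, Ucp1 (−0.255 to 0.041) and Elovl3 (−0.239 to 0.095) among them. It turned by at least its standard error for 2, Prdm16 with the mean of its probe sets (0.006) and Acta1 with the muscle covariate (−0.143). With all probe sets of a gene averaged, the difference was 0.307 for H2-Q10, 0.425 for Prdm12, −0.444 for Ctnnbip1, −0.237 for Grm6 and −0.082 for Acot4.

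Replicate numbers are shared by the groups, but nothing ties a number to an animal or day. Over 31 same-numbered pairs the correlation of deviations from group means ran from −0.244 to 0.33 (median −0.035), 6 were above 0.1, and 4 of 22 arrays were closest to their own number. With the replicate number as a block, the difference again gave 0 calls (smallest adjusted p 0.541), and 66 and 118 raised probe sets kept more than 50% of the effect.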
